A study of Mus musculus with 12 samples.

Results

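The 9 genes described here encode factors through which the stem cell niche is known to support haematopoietic stem cells (HSCs): Kitl, Cxcl12, Angpt1, Angptl2, Angptl4, Thpo, Csf1, Spp1 and Ptn. They were chosen by name, through the GRCm38 gene identifiers that GENCODE gives them, and all 9 had a row in each of the 2 count tables, which together list 57055 identifiers. RNA was sequenced in bulk from cells sorted out of mouse fetal liver at E14.5, in 12 libraries. HSCs were sorted as DAPI-negative, CD45-positive, lineage-negative, cKit-positive, Sca1-positive, CD48-negative and CD150-positive cells, with 2000 cells per library, and macrophages by CD169, with 1000 to 3000 cells per library. Each sort has 3 libraries without Vav-Cre (Cre negative) and 3 with it (Cre positive). Every embryo carried floxed Jag1 (Jag1 f/f), the Cre negative controls too, which the HSC labels name WT, and the Cre positive embryos are named Mutant. The HSC labels give the strain as C57BL/6, and those of the macrophages give none. Vav-Cre recombines floxed alleles in blood cells, and Vav-driven Cre lines are known to reach part of the endothelium too. Jag1, which encodes a Notch ligand, is thus not targeted in the hepatoblasts and stromal cells of the liver. The HSC embryos are littermates per the study's design, but nothing says which library came from which embryo, so the p-values measure the spread between libraries only.

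A niche supplies a stem cell with membrane-bound and secreted ligands that hold it in place, keep it alive and set how often it divides. In the fetal liver, where HSCs expand in number, such ligands are known to come from stromal and perivascular cells, endothelium and hepatoblasts. Kitl (stem cell factor) acts on the receptor Kit, Cxcl12 on Cxcr4 and Angpt1 on Tek (Tie2). Thpo (thrombopoietin) is a cytokine of HSCs and megakaryocytes. Csf1 acts on Csf1r, the receptor on which macrophages depend. Angptl2 and Angptl4 are secreted angiopoietin-like proteins. Spp1 (osteopontin) is a matrix protein bound by integrins and Cd44, and Ptn (pleiotrophin) is a heparin-binding growth factor. In sorted blood cells the RNA of such genes can be their own or come from other cells in the sort. In bulk libraries, fewer cells of a type and less RNA per cell cannot be told apart.

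Depth was 51982064 to 77463770 counted reads in the HSC libraries. It was 17230019 to 24658205 reads in the Cre negative macrophage libraries and 2602934 to 5366990 in the Cre positive ones. Levels are given as CPM, the counts of a gene scaled to a common total, on library sizes scaled by TMM (trimmed mean of M-values), and 3 counts are worth 0.0385 to 0.0561 CPM in an HSC library. In the macrophages 3 counts are worth 0.136 to 0.171 CPM in Cre negative and 0.513 to 1.06 CPM in Cre positive libraries, so that a low factor is resolved less finely in the latter. These floors speak to counting error alone, because PCR copies were not marked as such by molecular identifiers. Jag1 itself read 6.52, 6.86 and 1.15 CPM in the Cre negative and 10.5, 0 and 19.4 CPM in the Cre positive HSC libraries, where the labels of genotype cannot be read from it. In the macrophages Jag1 read 51.7, 20.7 and 25.9 CPM in Cre negative against 0, 10.4 and 6.67 CPM in Cre positive libraries. It was lower there without overlap, as 11.8% of all genes tested were. The unadjusted p was 0.0946 by edgeR and the adjusted p 0.782 by DESeq2, so the difference did not pass. Siglec1, the gene of CD169, ranged from 15.9 to 115 CPM over the macrophage libraries. In HSCs Cd48 read 12.6, 17.4 and 25.3 CPM in Cre negative and 3.27, 8.51 and 0 CPM in Cre positive libraries. It was lower without overlap, as 9.33% of all genes tested were, with an adjusted p of 0.931 by edgeR. Slamf1, the gene of CD150, ranged from 8.02 to 74.3 CPM and Ly6a, that of Sca1, from 127 to 190 CPM. The part of these gate genes in the HSC results was not tested.

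Markers of other liver cell types were present in both sorts, as the plot of marker shares shows. The 20 sinusoidal endothelial markers all had reads in every library and took 0.825% to 1.66% of reads in Cre negative and 0.846% to 1.13% in Cre positive HSC libraries. Stellate and mesenchymal markers took 0.0563% to 0.109% and 0.0441% to 0.0885% of HSC reads, with 15 to 19 of 20 detected and Rgs5 at 0 throughout. Hepatoblast markers took 0.170% to 0.371% and 0.192% to 0.298% of HSC reads. The HSC markers themselves took 0.220% to 0.325% and 0.220% to 0.284%, less than the endothelial markers in every HSC library. In the macrophages, the stellate share was 0.0609% to 0.214% in Cre negative and 0.0322% to 0.0487% in Cre positive libraries, without overlap and with 13 to 20 of 20 detected. The macrophage markers took 0.160% to 0.763% and 0.196% to 0.519% of reads, and the endothelial markers 1.05% to 2.11% and 1.76% to 2.22%. The endothelial share was thus above the macrophage share in every macrophage library. The lists differ in their genes, so these shares are not fractions of cells. Cre negative macrophage replicate 1 stood apart from the other Cre negative libraries, with the lowest macrophage share (0.160%) and the highest stellate (0.214%) and hepatoblast (0.475%) shares. The part of these cells in the results below was not tested.

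**Figure D1:**
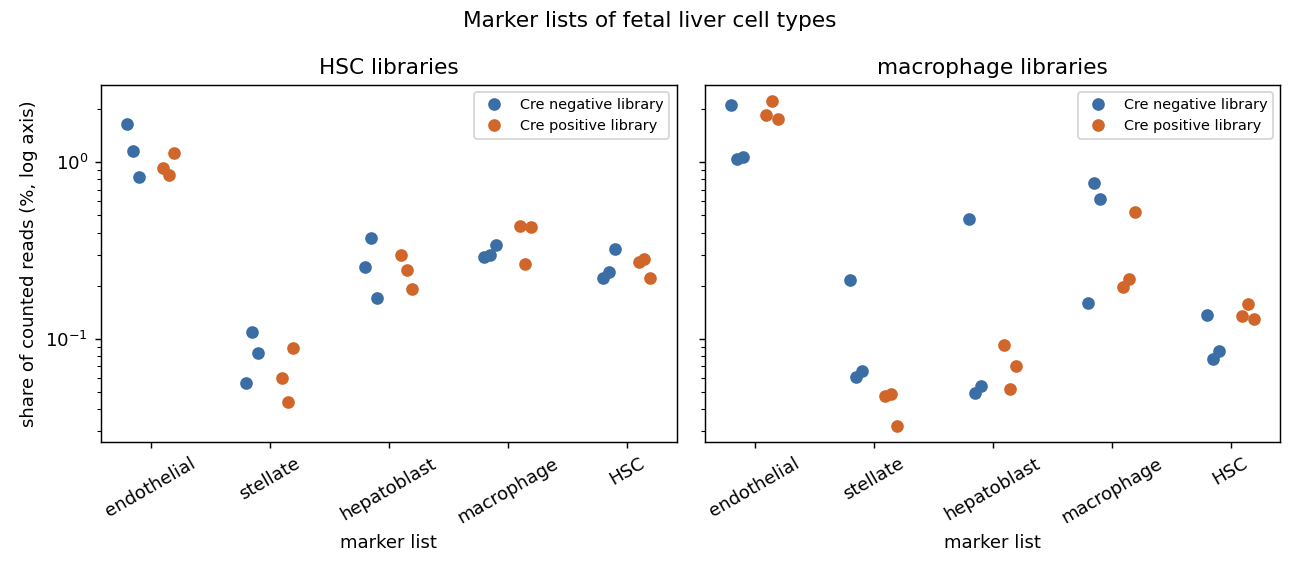
Share of counted reads (percent, log axis) taken by the marker lists of 5 fetal liver cell types in each library of the HSC sort (left) and the macrophage sort (right); each point is 1 library. Endothelial markers took up to 2.22% of macrophage reads, and the stellate shares of the Cre positive macrophage libraries all lay under 0.0609%.

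Promoter sequences are shown for the factors whose Cre positive libraries lay apart from the Cre negative ones and that have an entry in the RefSeq promoter table of GRCm38.p6. These are Cxcl12 and Csf1 in HSCs and Kitl and Spp1 in macrophages. Each runs 5′ to 3′ on the strand of the gene, from 250 bases before to 50 bases after the RefSeq start. Capitals mark TGGGAA, the core bound by RBPJ, the DNA-binding factor of the Notch pathway. The windows are chr6:117168285-117168584 (plus strand) for Cxcl12, chr3:107760420-107760719 (minus strand) for Csf1, chr10:100015571-100015870 (plus strand) for Kitl and chr5:104434861-104435160 (plus strand) for Spp1.
Cxcl12: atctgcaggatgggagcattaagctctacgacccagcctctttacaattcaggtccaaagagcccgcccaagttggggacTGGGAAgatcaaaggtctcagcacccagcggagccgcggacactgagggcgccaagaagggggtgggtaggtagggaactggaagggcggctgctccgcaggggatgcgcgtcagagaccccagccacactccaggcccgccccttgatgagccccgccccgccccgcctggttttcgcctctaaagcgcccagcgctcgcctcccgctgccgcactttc
Csf1: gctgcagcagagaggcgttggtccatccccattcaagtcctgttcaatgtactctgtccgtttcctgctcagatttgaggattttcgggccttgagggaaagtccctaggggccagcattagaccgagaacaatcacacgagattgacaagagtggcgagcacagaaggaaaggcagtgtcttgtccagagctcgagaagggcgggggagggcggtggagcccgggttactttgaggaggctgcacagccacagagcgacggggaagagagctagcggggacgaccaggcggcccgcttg
Kitl: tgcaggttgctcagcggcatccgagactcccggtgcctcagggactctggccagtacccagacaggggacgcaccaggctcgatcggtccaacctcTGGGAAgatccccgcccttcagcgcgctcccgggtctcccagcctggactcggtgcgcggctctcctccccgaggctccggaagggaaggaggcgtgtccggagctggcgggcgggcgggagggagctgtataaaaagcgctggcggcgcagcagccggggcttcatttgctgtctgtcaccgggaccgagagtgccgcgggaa
Spp1: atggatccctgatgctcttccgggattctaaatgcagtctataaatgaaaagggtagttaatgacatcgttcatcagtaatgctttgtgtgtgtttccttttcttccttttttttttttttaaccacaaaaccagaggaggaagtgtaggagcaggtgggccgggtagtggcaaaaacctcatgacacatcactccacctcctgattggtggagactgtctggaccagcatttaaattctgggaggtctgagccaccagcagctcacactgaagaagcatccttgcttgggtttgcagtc

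Of the 9 factors, 7 matched the promoter table, all but Angpt1 and Angptl4. TGGGAA, searched on both strands (as TTCCCA on the other), was in 3 of the 7. It lay at position -154 from the RefSeq start in Kitl, at -170 in Cxcl12 and, on the opposite strand, at -84 in Ptn, while the windows of Csf1 and Spp1 do not hold these letters. The RefSeq start of Kitl lies 191 bases downstream of its GENCODE start, so by GENCODE the match in Kitl is inside the gene. Of all 32851 mouse promoters of this length in the table, 25.6% hold it. ACGTG, the core of hypoxia response elements, was in 0 of the 7, against 19.6% of all promoters, so that no match of 1 motif overlapped the other. These matches describe the letters of the windows and are no evidence of binding.

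Both sorts held RNA of most factors, and the order of their levels differed. On the scale of CPM per kilobase of exon, which allows genes to be compared within a sort, Angpt1 led the Cre negative HSC libraries with 17.97 ± 14.2 (SD, n = 3). Cxcl12 followed with 11.7 ± 2.78 and Kitl with 10.01 ± 3.57 CPM per kilobase, and these 3 overlapped in their libraries. Next, the levels per kilobase were 5.48 ± 0.372 for Csf1, 5.40 ± 1.44 for Angptl4 and 3.20 ± 1.62 for Ptn. Csf1 lay below every library of Kitl, while Angptl4 reached 6.29 and so overlapped Kitl, whose lowest library was at 6.09. Angptl2 (0.660 ± 0.435 CPM per kilobase), Thpo (0.413 ± 0.716) and Spp1 (0.413 ± 0.716) were lowest, and Angptl2 did not overlap Ptn. Angpt1 stood at percentile 73.7 of the genes tested in HSCs by this level, Cxcl12 at 64.4 and Kitl at 60.7, and Spp1 at 7.8.

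In the Cre negative macrophage libraries Kitl was first with 9.40 ± 2.28 CPM per kilobase (SD, n = 3), followed by Spp1 with 8.21 ± 1.42. Angptl4 (5.54 ± 2.38), Csf1 (2.92 ± 2.24), Cxcl12 (2.19 ± 1.27), Angptl2 (1.70 ± 2.38) and Ptn (1.22 ± 0.439) came next on the same scale. Angpt1 (0.530 ± 0.554 CPM per kilobase) and Thpo (0.00582 ± 0.0101) were last. Every neighbouring pair in this order overlapped between libraries, so the order rests on means. Kitl stood at percentile 73 of the genes tested in macrophages, Spp1 at 70.1 and Angpt1 at 10.5. Levels were not compared between the sorts, since each has its own table.

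**Figure D2:**
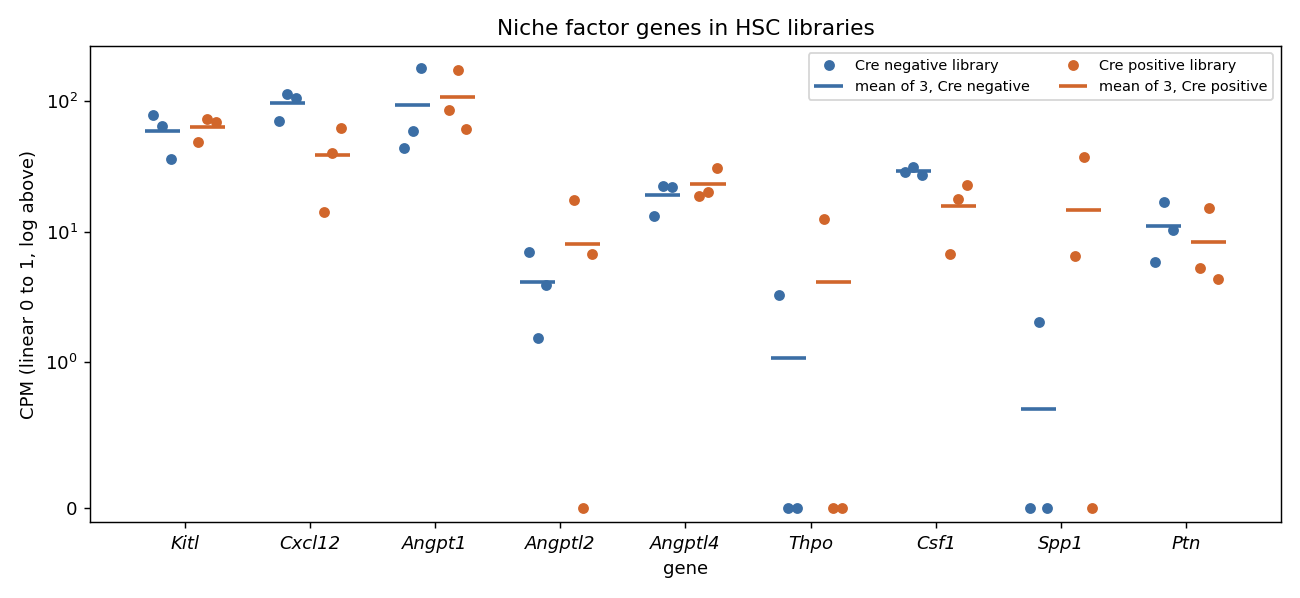
CPM (linear from 0 to 1, logarithmic above) of the 9 niche factor genes in the HSC libraries; points are libraries and bars the means of 3, with Cre negative and Cre positive side by side. The Cre positive points of Cxcl12 and Csf1 lie below all Cre negative points, and those of the other genes overlap.

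**Figure D3:**
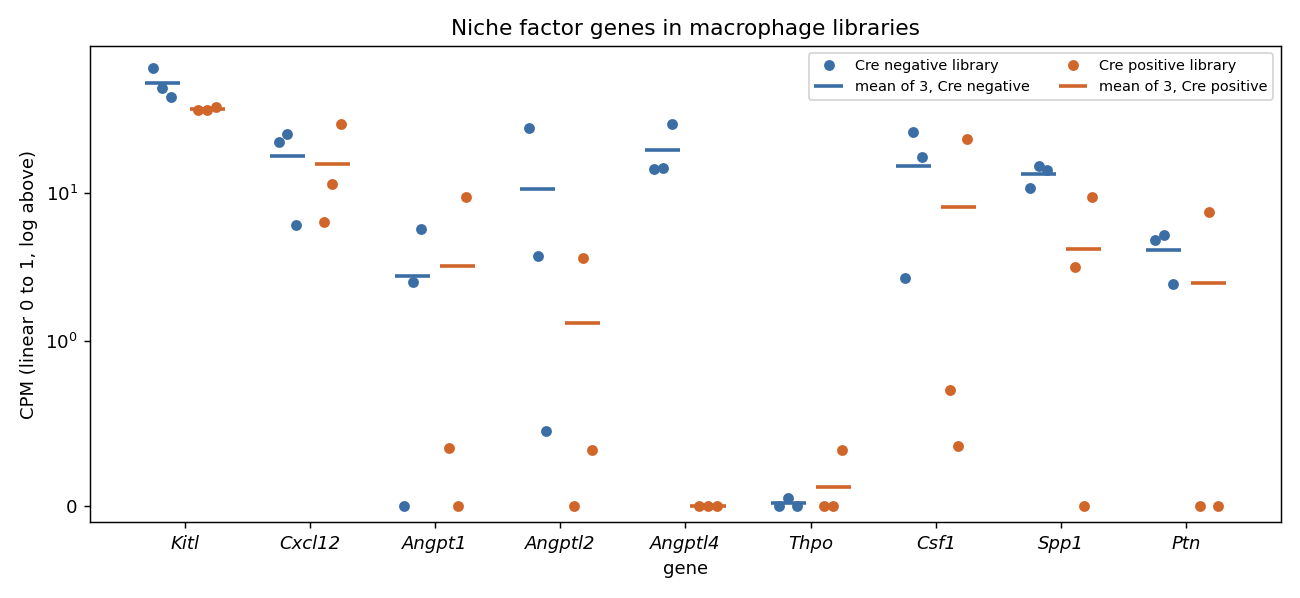
CPM (same axis) of the 9 niche factor genes in the macrophage libraries; points are libraries and bars the means of 3. Angptl4 has 0 reads in all 3 Cre positive libraries and 14.6 to 29.4 CPM in the Cre negative ones, and the Cre positive points of Kitl and Spp1 also lie below the Cre negative ones.

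Whether loss of Jag1 in blood cells goes with other levels of these factors was asked by comparing Cre positive with Cre negative libraries within each sort, with edgeR's quasi-likelihood test and Benjamini-Hochberg adjustment over all genes tested. In HSCs, 0 of the 8 factors that passed the low-count filter reached an adjusted p of 0.05, beside 0% of all 13962 genes tested. By unadjusted p under 0.05 it was 1 factor (Cxcl12), beside 6.39% of all genes in either direction and 3.97% in the lower one, and DESeq2 called 0 factors, beside 0.946% of all genes. Of the 8, 5 had a higher and 3 a lower mean in Cre positive HSCs, with a median log2 fold change of 0.14 against -0.005 over all genes. In 2 of them, Cxcl12 and Csf1, all Cre positive libraries lay below all Cre negative ones, and 9.33% of all genes tested did the same. No factor with reads in Cre negative HSCs was at 0 in all Cre positive ones, as 0.888% of all genes were.

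Cxcl12, the chemokine that keeps HSCs near stromal cells in the marrow, read 70.0, 113 and 105 CPM in Cre negative and 14.1, 40.0 and 62.3 CPM in Cre positive HSC libraries. The groups did not overlap, and the lowest value, that of Cre positive replicate 1, was far below the rest. The means were 95.8 ± 22.7 and 38.8 ± 24.2 CPM (SD, n = 3), a log2 fold change of -1.30 (SE 0.52). The unadjusted p was 0.0373 by edgeR and the adjusted p 0.775, with 0.43 by DESeq2, so the difference did not pass. Without Cre positive replicate 1 the log2 fold change was -0.91. In the macrophages the gene gave no such picture: it read 22.3, 25.3 and 6.07 CPM in Cre negative and 6.37, 11.5 and 29.6 CPM in Cre positive libraries. These values overlapped throughout, with a log2 fold change of -0.18 (SE 1.28) that turned to 0.04 with DESeq2 size factors. Its genotype effects in the 2 sorts differed by 1.11 (SE 1.10, macrophage minus HSC, adjusted p = 0.994 by edgeR). Cxcl12 lies on the plus strand of chromosome 6, at chr6:117168535-117181367 in GRCm38.

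Kitl, whose product binds Kit on the HSC surface, read 77.2, 64.3 and 36.0 CPM in Cre negative and 48.2, 73.2 and 69.4 CPM in Cre positive HSC libraries. The groups overlapped, with a log2 fold change of 0.10 (SE 0.37, adjusted p = 0.996 by edgeR). In the macrophages Kitl read 70.6, 51.5 and 44.5 CPM without Cre and 36.8, 36.7 and 38.7 CPM with it. All Cre positive macrophage values lay below the Cre negative ones, and they were close together. The means were 55.5 ± 13.5 and 37.4 ± 1.09 CPM (SD, n = 3), a log2 fold change of -0.57 (SE 0.63, unadjusted p = 0.381 by edgeR). The groups were apart with TMM and upper-quartile scaling, and overlapped with DESeq2 size factors and with library totals. Without Cre negative replicate 1, the library with the high stellate and hepatoblast shares, the log2 fold change was -0.32. The gene spans chr10:100015630-100100416 (plus strand), and the counts do not separate its membrane-bound and soluble isoforms.

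Angpt1, a ligand of Tek, read 43.4, 58.7 and 178 CPM in Cre negative and 84.7, 173 and 60.7 CPM in Cre positive HSC libraries. Each group had 1 library far above its others, and the groups overlapped, with a log2 fold change of 0.18 (SE 0.60, unadjusted p = 0.77 by edgeR). In macrophages it read 0, 2.52 and 5.76 CPM without Cre and 0.354, 0 and 9.41 CPM with it. Each group thus had a library at 0, and the fitted log2 fold change of 0.24 had an SE of 2.53. The gene lies at chr15:42424723-42676977 on the minus strand and shares exon sequence with the predicted gene Gm17473 on the other strand. Since the libraries do not mark strand, reads of that overlap cannot be told apart. Gm17473 had 242 counts (41.4 CPM) in Cre positive macrophage replicate 3, the library with most Angpt1 in that sort, and 0 in the other 5. In HSCs it had 81, 0 and 243 counts in Cre negative and 299, 3 and 0 in Cre positive libraries.

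Thpo, the thrombopoietin gene that hepatocytes are known to express, was detected in 1 library of each HSC group. It read 3.26, 0 and 0 CPM in Cre negative and 12.4, 0 and 0 CPM in Cre positive HSC libraries, from 175 and 664 counts in the 2 libraries that held it. In macrophages it had 1 count in 1 Cre negative library and 2 counts in 1 Cre positive library. It stayed below the low-count filter in both sorts and was not tested on its own there. Its exons at chr16:20724454-20734511 (minus strand) overlap Chrd on the other strand. Chrd had 0 counts in every HSC library.

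Csf1, which encodes the growth factor of macrophages, read 28.8, 30.9 and 27.0 CPM in Cre negative and 6.76, 17.8 and 22.5 CPM in Cre positive HSC libraries. The groups did not overlap, and the Cre negative values were close together while the Cre positive ones were spread. The means were 28.9 ± 1.96 and 15.7 ± 8.09 CPM (SD, n = 3), a log2 fold change of -0.88 (SE 0.56) with an unadjusted p of 0.155 and an adjusted p of 0.877 by edgeR. Cre positive replicate 1, lowest for Cxcl12 too, was again the lowest, and without it the log2 fold change was -0.52. In macrophages Csf1 read 2.68, 26.1 and 17.5 CPM without Cre and 0.707, 0.365 and 23.3 CPM with it. Low and high libraries stood in both groups there, and the log2 fold change of -0.92 had an SE of 1.78. It was -4.90 without Cre positive replicate 3, the only Cre positive library above 1 CPM. Cre positive replicates 1 and 2 had 2 counts each, under the floor of 3 counts. The gene lies at chr3:107741048-107760469 on the minus strand.

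Angptl4, which encodes an inhibitor of lipoprotein lipase, read 13.2, 22.3 and 21.8 CPM in Cre negative and 18.6, 20.0 and 30.7 CPM in Cre positive HSC libraries. These overlapped, with a log2 fold change of 0.27 (SE 0.51, unadjusted p = 0.606 by edgeR). In the macrophages it read 14.6, 14.9 and 29.4 CPM without Cre, from 256, 325 and 648 counts, and it had 0 counts in all 3 Cre positive libraries. No other factor was at 0 throughout a group of macrophages. Taking 3 counts per library as the floor, a mean of 0.707 CPM, the level was at least 27.7-fold lower in the Cre positive libraries. Thinned at random to the 2602934 reads of the shallowest library, the Cre negative counts were 44, 30 and 76. The floor and the thinning speak to read counting alone, and loss of molecules before amplification was not tested. By edgeR the unadjusted p was 0.00242, at rank 22 of 17806 genes, and the adjusted p of 0.773 did not pass, while DESeq2 gave an adjusted p of 0.00317. An exact permutation test of the 3 against 3 libraries gave 0.1, the smallest p it can give. A share of 2.59% of all genes tested also had 0 reads in every Cre positive macrophage library. The difference between its genotype effects in the 2 sorts had an adjusted p of 0.133 by edgeR and of 3.44e-06 by DESeq2. Angptl4 spans chr17:33773750-33781830 on the minus strand.

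Angptl2, whose product expands HSCs in culture, read 6.98, 1.53 and 3.93 CPM in Cre negative and 17.5, 0 and 6.69 CPM in Cre positive HSC libraries. The Cre positive values thus enclosed the Cre negative ones, and the log2 fold change of 0.96 had an SE of 2.04. In macrophages it read 27.8, 3.76 and 0.453 CPM without Cre and 0, 3.65 and 0.342 CPM with it. The high value was that of Cre negative replicate 1, and the log2 fold change of -2.97 (SE 2.39) was -0.60 without that library and -5.78 without Cre positive replicate 2, the library that holds most of the Cre positive level. The gene lies at chr2:33216069-33247717 on the plus strand, within the span of Ralgps1 but sharing no exon with it.

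Spp1, known in the marrow for limiting the size of the HSC pool, was the lowest of the factors in the HSC controls beside Thpo. It read 0, 2.04 and 0 CPM in Cre negative and 6.46, 37.5 and 0 CPM in Cre positive HSC libraries, with 3 libraries at 0. The fitted log2 fold change of 4.42 had an SE of 3.09 and an adjusted p of 0.91 by edgeR, and it was 2.24 without Cre positive replicate 2. Without Cre negative replicate 2, the only Cre negative library with reads, it was 12.84 against 2 libraries at 0. In the macrophages Spp1 read 10.9, 15.3 and 14.46 CPM without Cre and 3.18, 0 and 9.41 CPM with it. All Cre positive values lay below the Cre negative ones. The means were 13.5 ± 2.34 and 4.20 ± 4.78 CPM (SD, n = 3), a log2 fold change of -1.68 (SE 1.96, unadjusted p = 0.402 by edgeR), which was -1.12 without Cre positive replicate 2 and -3.15 without replicate 3. It lies at chr5:104435118-104441050 on the plus strand and shares exon sequence with the predicted gene Gm42793, which had 20 counts in Cre positive macrophage replicate 2, where Spp1 had 0, and 0 in the other macrophage libraries. The part of that overlap was not tested.

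Ptn, which endothelial cells are known to secrete, read 5.83, 16.9 and 10.3 CPM in Cre negative and 5.31, 15.2 and 4.30 CPM in Cre positive HSC libraries. The groups overlapped, with a log2 fold change of -0.41 (SE 0.98). In macrophages it read 4.84, 5.23 and 2.45 CPM without Cre and 0, 7.49 and 0 CPM with it. The highest value was thus in a Cre positive library while the other two were at 0, and the log2 fold change of -0.73 (SE 2.42) rested on that library, Cre positive replicate 2, without which it was -8.88 against 2 libraries at 0. The gene spans chr6:36714929-36810220 on the minus strand.

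Over the macrophages, 0 of the 8 factors tested reached an adjusted p of 0.05 with edgeR, beside 0% of all 17806 genes. By unadjusted p under 0.05 it was 1 factor (Angptl4), beside 5.42% of all genes in either direction and 4.91% in the lower one, and DESeq2 called 1, Angptl4, beside 0.397% of all genes. Only Angpt1 had a fitted value above 0 and 7 had one below, with a median log2 fold change of -0.83 against -0.16 over all genes. With DESeq2 size factors the medians were -0.62 and 0.04. On TMM scaling, 56.1% of all genes had a lower mean in Cre positive macrophages. In 3 factors, Kitl, Angptl4 and Spp1, the Cre positive libraries all lay below the Cre negative ones, against 11.8% of all genes tested. The opposite order was seen in 0 factors and in 2.27% of all genes. The same libraries had the lower stellate shares given above, whose part in the differences was not tested, and the lower depth. With all libraries thinned to the shallowest, the log2 fold change was -0.42 for Kitl, -1.31 for Spp1, -0.74 for Csf1, -0.51 for Ptn, -2.64 for Angptl2 and 0.025 for Cxcl12, and 0 factors passed.

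**Figure D4:**
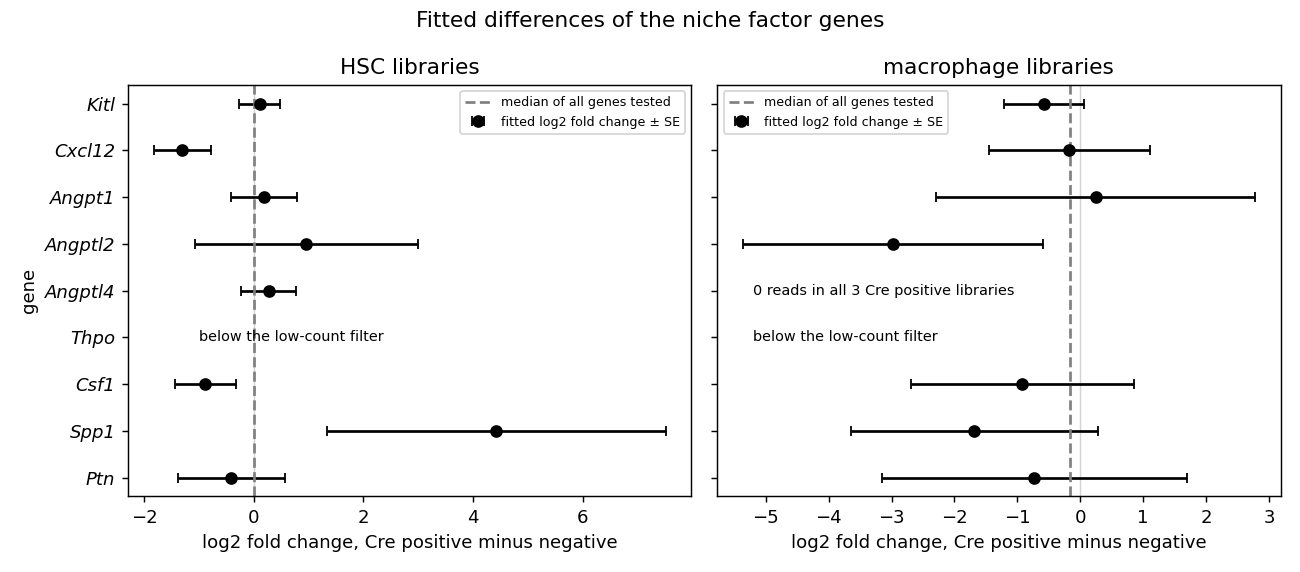
Fitted log2 fold change (Cre positive minus negative, edgeR) of each factor that passed the low-count filter, with its SE, in HSCs (left) and macrophages (right); the dashed line is the median of all genes tested. In macrophages 6 of the 7 fitted points lie left of 0, and Angptl4, with 0 reads in Cre positive libraries, has no fitted point.

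The difference of genotype effects between the sorts was tested for all 9 factors in 1 fit over the 12 libraries. It passed for 0 factors by edgeR, beside 0.0696% of 20128 genes, and for 1 by DESeq2, Angptl4, beside 3.9% of the 19161 genes to which DESeq2 gave an adjusted p. Angptl4 was also the only factor with an unadjusted p under 0.05 by edgeR, beside 8.62% of all genes. For Kitl the effects differed by -0.70 (SE 0.79, macrophage minus HSC). For Spp1 the value was -6.12 (SE 3.48, adjusted p = 0.667), with both effects resting on libraries at 0. The separation of Cxcl12 and Csf1 in HSCs and of Kitl and Spp1 in macrophages is therefore not shown to differ between the sorts.

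The receptors of these factors were taken from a list of 18 genes, and 0 passed in either sort, of 16 tested in HSCs and 17 in macrophages. Unadjusted p by edgeR was under 0.05 for 3 receptors in HSCs and 1 in macrophages, beside 6.39% and 5.42% of all genes. DESeq2 called 0 in each, beside 0.946% and 0.397% of all genes. In HSCs, 7 had a higher and 9 a lower mean in Cre positive libraries, with a median log2 fold change of -0.13. Over all genes the median was -0.005, and 50.3% had a lower mean. Kit, the receptor of stem cell factor, stood at 40.0 to 183 CPM in the HSC libraries. Cxcr4, the receptor of Cxcl12, stood at 0.308 to 8.35 CPM in the same libraries. Csf1r, a macrophage gene, ranged from 32.1 to 192 CPM there, beside the macrophage marker shares of 0.267% to 0.434%.

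Tek, the receptor of Angpt1 and also an endothelial gene, read 380, 287 and 272 CPM in Cre negative and 218, 127 and 173 CPM in Cre positive HSC libraries. The groups did not overlap. The means were 313 ± 58.9 and 172.6 ± 45.6 CPM (SD, n = 3), a log2 fold change of -0.86 (SE 0.26, unadjusted p = 0.0105 and adjusted p = 0.689 by edgeR). In macrophages Tek read 504, 435 and 329 CPM without Cre and 535, 707 and 559 CPM with it, higher without overlap, with a log2 fold change of 0.51 (SE 0.30, unadjusted p = 0.109 by edgeR). The endothelial shares of the Cre positive macrophage libraries (1.76% to 2.22%) lay above those of Cre negative replicates 2 and 3 (1.05% and 1.08%) and around that of replicate 1 (2.11%), and their part was not tested. Itgb1, the beta chain of several integrins that bind osteopontin, was lower without overlap in Cre positive HSCs (640.7 ± 122 against 436.6 ± 58.7 CPM, SD, n = 3). Itga4, an alpha chain of such integrins, was higher without overlap (50.3 ± 20.1 against 101 ± 35.0 CPM). Neither passed after adjustment. Of the 16 receptors tested in HSCs, 2 were lower and 1 higher without overlap, beside 9.33% and 6.37% of all genes tested. Of the 17 tested in macrophages, 1 was lower and 1 higher without overlap, beside 11.8% and 2.27% of all genes.

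In the macrophages 6 receptors had a higher and 11 a lower mean in Cre positive libraries, with a median log2 fold change of -0.45. Over all genes the median was -0.16, and 56.1% had a lower mean. Itgav, the integrin chain that pairs with Itgb3 to bind osteopontin, stood at 113.6 ± 50.4 CPM without and 48.7 ± 18.9 CPM with Cre (SD, n = 3), with a log2 fold change of -1.22 (SE 0.53) and overlapping groups. Csf1r ranged from 79.9 to 881 CPM over these libraries, in both groups with low and high values. The library of lowest Csf1r, Cre positive replicate 2, had 2 counts of Csf1. Cre positive replicate 1 had 2 counts too, and both lie under the floor of 3 counts.

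**Figure D5:**
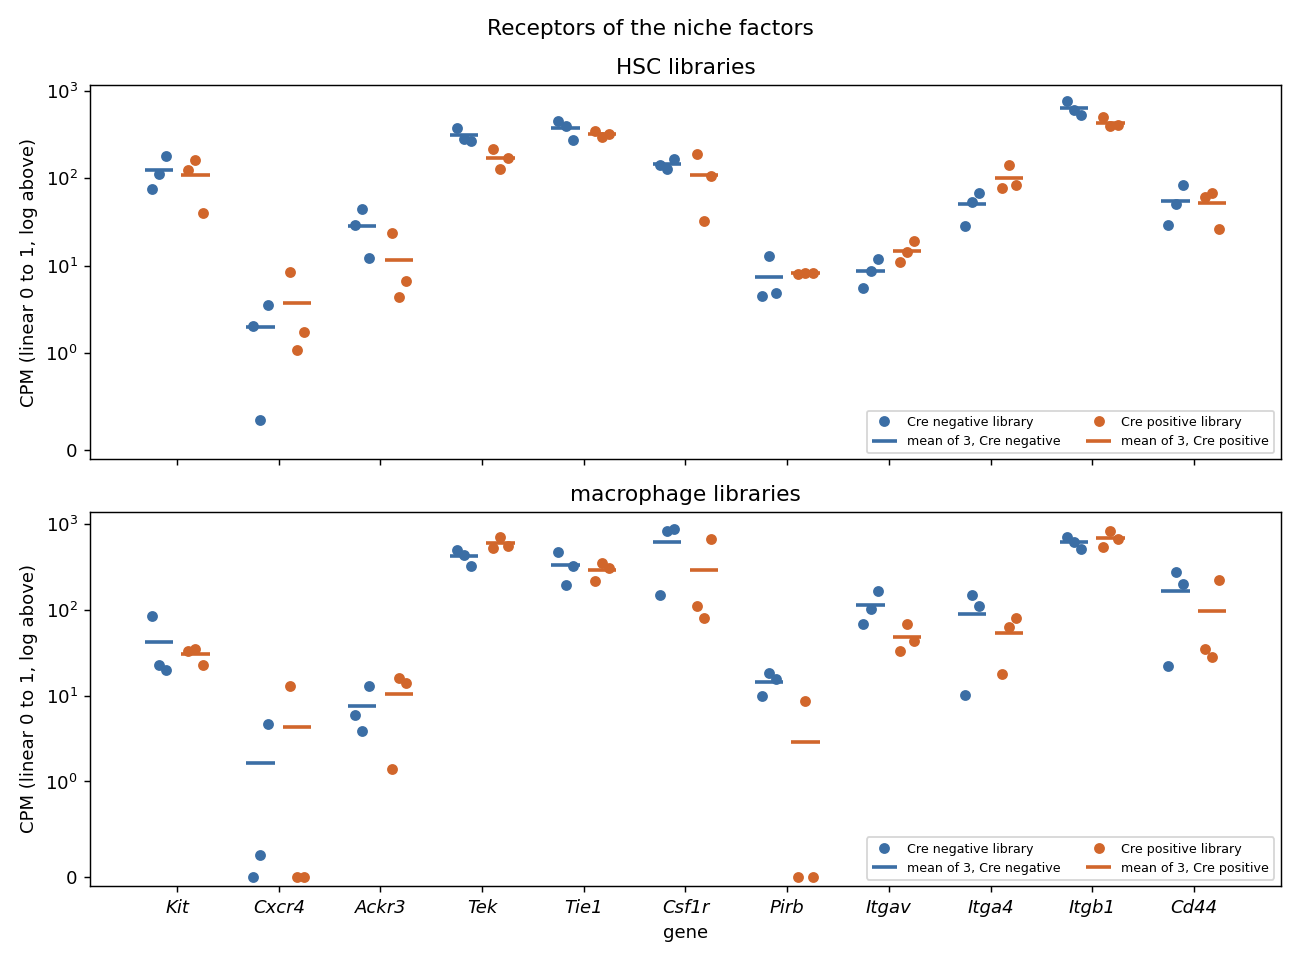
CPM (linear from 0 to 1, logarithmic above) of 11 receptors of the niche factors in the HSC libraries (top) and macrophage libraries (bottom); points are libraries and bars the means of 3. Tek lies lower in Cre positive HSCs and higher in Cre positive macrophages, with no overlap between the groups in either sort.

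Of 34 other niche factors, 18 were tested in HSCs and 25 in macrophages, and 0 passed in either by edgeR or DESeq2. By unadjusted p under 0.05 with edgeR there were 2 in HSCs and 1 in macrophages, beside 6.39% and 5.42% of all genes. In HSCs, 6 had a higher and 12 a lower mean in Cre positive libraries, with a median log2 fold change of -0.44. In macrophages 16 had a higher and 9 a lower mean, with a median of 0.45. Over all genes the median was -0.005 in HSCs and -0.16 in macrophages, and 50.3% and 56.1% had a lower mean. Bmp2, a bone morphogenetic protein made by liver endothelium, stood at 346.7 ± 150 CPM without and 178.6 ± 58.7 CPM with Cre in HSCs (SD, n = 3; log2 fold change -0.96, unadjusted p = 0.0331 by edgeR). In macrophages Bmp2 stood at 263 ± 67.6 and 423.6 ± 138 CPM. Dpp4, a protease that cleaves Cxcl12, stood at 218 ± 79.9 CPM without and 118 ± 46.2 CPM with Cre in HSCs, with a gap of less than 1 CPM between the groups. In macrophages it stood at 219.8 ± 50.1 and 376 ± 36.1 CPM, higher without overlap (log2 fold change 0.78, unadjusted p = 0.0301 by edgeR). Angptl6, a relative of Angptl2, was lower without overlap in Cre positive HSCs (34.6 ± 23.7 against 2.65 ± 4.36 CPM), and Vegfa, the vascular growth factor, was higher without overlap (16.1 ± 5.10 against 35.8 ± 22.7 CPM). The Vegfa groups were less than 1 CPM apart (21.2 and 21.6 CPM), and 1 Cre positive library stood at 61.9 CPM. The adjusted p by edgeR was 0.832 for Angptl6 and 0.821 for Vegfa. Of the 18 tested in HSCs, 2 were lower and 1 higher without overlap, beside 9.33% and 6.37% of all genes tested. Of the 25 tested in macrophages, 0 were lower and 1 was higher without overlap, beside 11.8% and 2.27% of all genes. In macrophages the fitted log2 fold change was -2.65 for Ccl2, a monocyte chemokine, and 0.38 for Fn1, the fibronectin gene.

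The genes whose libraries varied most like a factor were found by the mean absolute difference of log2(CPM + 1), centred over the 6 libraries of a sort, among tested genes of at least 10 CPM on average. There were 10018 such genes in HSCs and 9633 in macrophages, and the distance to the nearest of them ranged widely between factors. Spp1 in HSCs had its nearest, Fjx1, at 0.842. For Cxcl12 in HSCs the nearest were Glipr2 (0.156), Siah2 (0.259) and Lpar4 (0.265). Those of Kitl were closer, Map4 (0.0770), Ube2c (0.0859) and Fundc2 (0.0912), and those of Csf1 were Hemk1 (0.120), Ndn (0.127) and Ncapg2 (0.128). In macrophages, Rps2 (0.0791), Dek (0.110) and Rbm28 (0.112) were nearest to Kitl. Angptl4, at 0 in all Cre positive macrophage libraries, had as nearest Rundc1 (0.372), Alas2 (0.372) and Rinl (0.391).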

How the data were processed

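Full-length cDNA libraries were made with SMART-Seq v4, a kit that carries no strand information, in 1 batch per sort, per the labels' protocols; for macrophages these give 1 ng of RNA and 11 cycles. The authors deposited unnormalised counts of reads for each gene, in 1 table per sort (32285 identifiers for HSCs, 56980 for macrophages). HSC reads were processed with STAR 2.7.6a and featureCounts of Subread 2.0.1 on GRCm38, per the submitters' processing notes. These name mm10 alone for macrophages. The aligner and counter of that table were not given in the sources used here, nor were the annotation release and the treatment of multiply mapped reads. Reads of overlapping or antisense genes therefore cannot be told apart.

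Each table was analysed alone in R 4.3.3 with limma 3.58.1 and edgeR 4.0.16: filterByExpr, TMM, robust glmQLFit and glmQLFTest, with an adjusted p of 0.05 as threshold. Standard errors came from the fold change and the F statistic. The interaction of genotype and sort was fitted over the 32210 identifiers in both tables. Names, exon lengths and positions came from GENCODE M21, of the build of the files. Alternatives were DESeq2 1.42.0, other scalings, no low-count filter (at least 1 read), the replicate block, thinned counts and leaving out each library; that of counting factors whose groups do not overlap under other scalings was added after the data were seen. The steps were tested on simulated data. Names printed are those of all factors, Jag1, the sort gates, receptors, up to 4 other niche factors per sort by unadjusted p (mean of 5 CPM or more in either group), and the 3 genes nearest to a factor. The factors and lists were chosen with earlier results of these data known. Receptors and nearest genes are given in part, and 1 receptor is not reported here and was left out of its lists.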

Additional observations from a re-analysis of the deposited data

Results flagged for a closer look

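Tek, the receptor of Angpt1, was singled out because all Cre positive libraries lay below the Cre negative ones in HSCs and above them in macrophages. The share of all genes with this opposite order is not given here. The genotype effects differed by 1.34 on the log2 scale (macrophage minus HSC), with an adjusted p of 0.461 by edgeR, which does not pass. By DESeq2 it was 0.0174, where 3.9% of all genes passed. Tie1, from the same list of receptors, overlapped between groups in both sorts. Its log2 fold change was -0.23 in HSCs and -0.20 in macrophages. The endothelial marker shares stand beside Tek above.

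Dpp4, the protease that cleaves Cxcl12, showed the same opposite order, with a difference of effects of 1.64 on the log2 scale, an adjusted p of 0.456 by edgeR and of 0.0427 by DESeq2. In HSCs its groups were less than 1 CPM apart.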

How the results depend on the processing

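No factor was called in HSCs under any alternative run. DESeq2 called 129 genes in HSCs and 54 in macrophages, 1 of the latter a factor (Angptl4), where edgeR called 0. In macrophages edgeR called 21 genes without the low-count filter, 13 with the replicate block, and 1 to 34 with 1 library left out. In the interaction, 1 factor (Angptl4) was called with DESeq2 and without the filter, and 0 to 1 with 1 library left out. Its adjusted p there was 0.0477 and 0.0416 without Cre positive macrophage replicates 1 and 2. The deviations of same-numbered libraries from their group means correlated by -0.033 to 0.012 in HSCs and -0.016 to 0.027 in macrophages. With 3 libraries per group these values cannot decide whether the replicate numbers pair the libraries, and the labels do not say. With the replicate block the log2 fold change of Angptl2 in HSCs was -0.52, and no other factor turned direction. The log2 fold change of Cxcl12 in macrophages was 0.045 with DESeq2, 0.043 with its size factors in edgeR, 0.018 on library totals and 0.025 with thinned counts. With 1 library left out, the log2 fold change ran from -0.31 to 1.56 for Angptl2, -0.37 to 1.05 for Angpt1, -1.19 to 0.033 for Ptn and -0.16 to 0.34 for Kitl in HSCs, and from -1.07 to 0.15 for Cxcl12 and -4.05 to 1.34 for Angpt1 in macrophages. The cause was not tested. Kitl overlapped between groups in macrophages with DESeq2 size factors and library totals, which left 2 factors apart. With 3 libraries per group an exact test of 1 gene cannot go below 0.1, and at the depth of the Cre positive macrophages values under 0.513 to 1.06 CPM are within the floor.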
